A study of Mus musculus with 2 samples.

Results

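Cells that scored high for both a luminal progenitor and a basal gene program were examined outside cluster 6, which held another 258 such cells. Joint cells were the annotated cells outside clusters 6 and 13 with a deposited luminal progenitor score above 0.5 and a basal score above 0.5, where each score runs from 0 to 1. There were 489 of them among 9159 annotated cells, 185 of 3829 in mouse 1 (4.83%, exact 95% interval 4.17 to 5.56) and 304 of 5330 in mouse 2 (5.7%, 5.1 to 6.36). The comparison cells came from the same clusters, had a progenitor score above 0.5 and a basal score of at most 0.5, and numbered 1201 and 1602. The cells were thus chosen by their measured scores, so every value of a score gene below is a description without a test. The intervals of shares cover counting error only, and cells were never treated as replicates.

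Both mice belonged to one group with the alleles Krt8-CreERT, Rosa26-mTmG and MMTV-PyMT, and no control mice were part of it. The polyoma middle T antigen, expressed from the MMTV promoter in mammary epithelium, drives luminal tumors. Krt8-CreERT makes a tamoxifen-dependent recombinase in cells with an active Krt8 promoter, and the reporter then turns from tdTomato to GFP in that cell and its descendants, so cells that were never labelled were not sampled. Tamoxifen was given at 150 mg/kg on 6 days, at 5 and 6 weeks of age, and tumors were taken at a volume of 1.5 cm3. GFP+ cells lacking DAPI, CD31 and CD45 signal were sorted, which keeps dead, endothelial and most immune cells out, and sequenced with a droplet 3′ assay that counts unique molecular identifiers (UMIs), 1 library per mouse. The libraries held 6175 and 7538 barcodes with 63140346 and 61529883 UMIs and shared 20 barcode sequences; 2 joint cells, both of mouse 2, carried a barcode also present in the other library.

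In the mammary gland, luminal cells line the duct and carry the simple-epithelial keratins Krt8 and Krt18 and tight junction claudins, while basal myoepithelial cells surround them, contract through smooth muscle actin, carry Krt5, Krt14 and Krt17 and secrete basement membrane. Luminal progenitors are the hormone receptor-negative luminal cells that give rise to milk-producing alveoli. A cell with both programs is of interest in these tumors because the label marks luminal descent. The scores used here are variance-adjusted Mahalanobis (VAM) scores: the squared, log-normalized level of each signature gene is weighted and added up to a distance, and the distance is turned into a score. A gene that is rarely detected has a large weight, so a single transcript can add much to the distance.

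The joint cells were shallower than the cells they were compared with. Their median depth was 9904 UMIs in mouse 1 and 3799.5 in mouse 2, against 13740 and 8560 in the comparison cells, and 34 and 102 of them had under 2000 UMIs (18.4% and 33.6%, against 6.66% and 12.3%). A median of 2642 and 1517 genes was detected in a joint cell, against 3288 and 2545.5. The median mitochondrial share was 6.3% and 6.23%, against 6.12% and 5.45%. At 5000 UMIs or more, 121 and 129 joint cells and 1031 and 1167 comparison cells were left.

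The proportion of joint cells varied with depth in both mice. Among cells with a progenitor score above 0.5, the basal score was above 0.5 in 13.3% of mouse 1 (11.6 to 15.3) and 15.9% of mouse 2 (14.3 to 17.7). Under 2000 UMIs this share was 29.8% and 34.1%, and from 10000 to under 20000 UMIs it was 7.85% and 6.8%. It was higher again, at 14.7% and 11.8%, in cells with 20000 UMIs or more. Restricted to at least 5000 UMIs, it was 10.5% (8.79 to 12.4) and 9.95% (8.38 to 11.7). A basal score above 0.5 was not more frequent with a high progenitor score than without it: among cells outside clusters 6 and 13 with a progenitor score of at most 0.5, 20.8% (19.0 to 22.6) of mouse 1 and 16.9% (15.6 to 18.2) of mouse 2 had one. How far depth by itself sets the score was not tested.

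**Figure D1:**
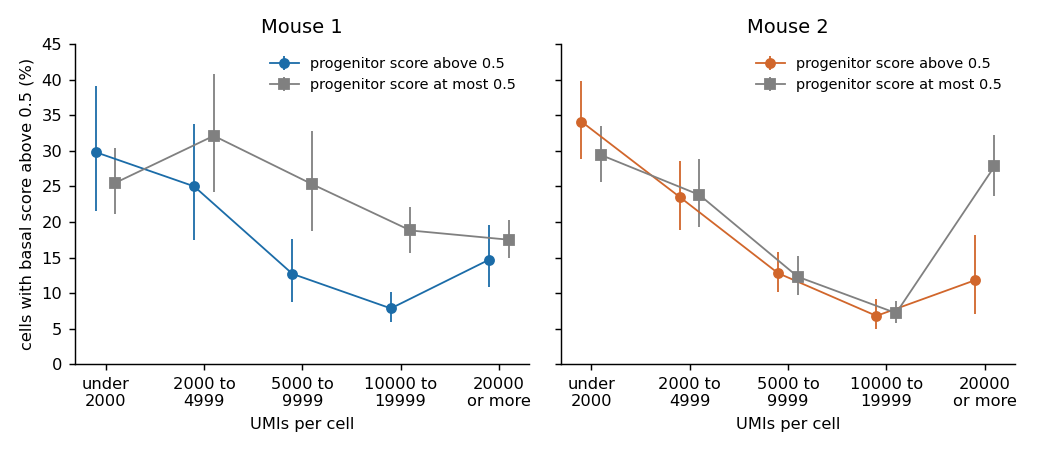
Share of cells outside clusters 6 and 13 with a basal score above 0.5 (vertical axis, percent) by UMIs per cell (horizontal axis), with exact 95% intervals, for cells with a progenitor score above 0.5 (circles, the joint cells) and at most 0.5 (squares). The circles of both mice are highest under 2000 UMIs, at 29.8% and 34.1%, and lowest from 10000 to under 20000 UMIs, at 7.85% and 6.8%.

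Joint cells were spread over many clusters. In mouse 2 the shallow cluster 1 held the most, 76 of 304 cells, followed by cluster 11 with 56, cluster 0 with 42 and cluster 9 with 34. In mouse 1 cluster 0 held 35, cluster 15 held 27, and clusters 1 and 11 held 26 each. Relative to the progenitor-score cells of a cluster, joint cells were a small minority in the deep cluster 0 (6.77% and 7.33%) and made up 29.5% (26 of 88) and 76 of 152 cells of cluster 1, whose median depth was 1257 and 1009 UMIs. They were 33.8% and 36.1% of cluster 11. Clusters 15 and 16 stood apart at the other end of depth, with median depths between 17922 and 33074 UMIs: 27 of 33 progenitor-score cells in cluster 15 of mouse 1 were joint (81.8%, 64.5 to 93.0), and in cluster 16 it was 7 of 7 and 10 of 11. The leading genes of cluster 15 included Ptn, Acta2, Sparc and Serpinf1, and those of cluster 16 included Top2a, Pclaf, Aurkb and Hist1h2ap, transcripts of DNA replication and cell division, beside the secretory genes Dcpp1, Dcpp2 and Dcpp3.

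**Figure D2:**
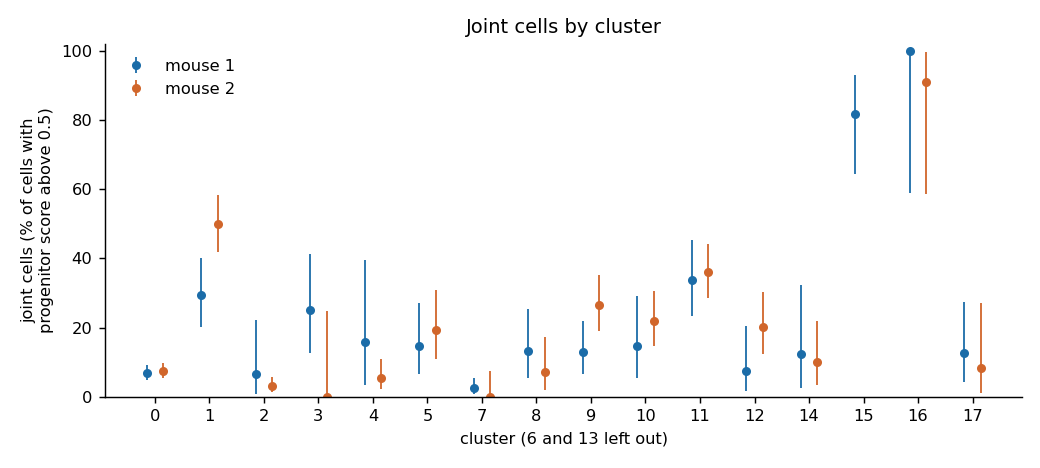
Joint cells as a percentage of the cells with a progenitor score above 0.5 in each cluster, with exact 95% intervals, by mouse. Clusters with fewer than 5 such cells in a mouse are not drawn for that mouse. Clusters 15 (81.8% in mouse 1) and 16 (100% and 90.9%) lie far above cluster 0 (6.77% and 7.33%).

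The deposited distances were then taken apart gene by gene. A sum of weighted signature genes recovered them nearly exactly, with a median error of 0.000336% for the basal and 0.000216% for the progenitor distance in cells held out. The basal signature held 1163 genes and the progenitor signature 398, with 0 genes in common. Besides basal keratins and all 11 genes of a smooth muscle contractile list, the basal signature held 11 of 14 genes of a mitosis list, Top2a, Mki67 and Cdk1 among them. A basal score of 0.5 corresponded to a distance between 2444 and 2448. The joint cells lay not far above it, with a median of 3922 in mouse 1 and 3645 in mouse 2, against 1040 and 1038 in the comparison cells and 26227 and 23052 in the joint cells of cluster 6 (146 and 112 cells). The joint cells nearest the limit scored 0.515 and 0.513 and the comparison cells nearest it 0.491 and 0.499. Most cells were far from it on the score: 67.6% and 66.1% of joint cells scored above 0.9, and 89.7% and 89.1% of comparison cells below 0.1.

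Removing a single gene often took a joint cell to the basal limit or under it. The largest gene made up a median of 30.6% and 32.0% of the basal distance of a joint cell. It was 17.9% and 18.4% in the comparison cells and 16.2% and 15.2% in the joint cells of cluster 6. The largest gene outweighed all other genes together in 47 of 185 and 68 of 304 joint cells. Without that gene, 97 of 185 joint cells of mouse 1 (52.4%) and 153 of 304 of mouse 2 (50.3%) had a distance at or under the limit, and in 39 and 90 of these the gene was present as 1 UMI. The same held at 5000 UMIs or more, with 49.6% and 51.9%. In the cluster 6 joint cells it was 4.79% and 4.46%, but their distances lay much further above the limit, with medians of 26227 and 23052 against 3922 and 3645. A joint cell had a median of 83 and 43 basal signature genes detected, a comparison cell 86 and 63, and a cluster 6 joint cell 174 and 122.5, at the unequal depths given above.

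**Figure D3:**
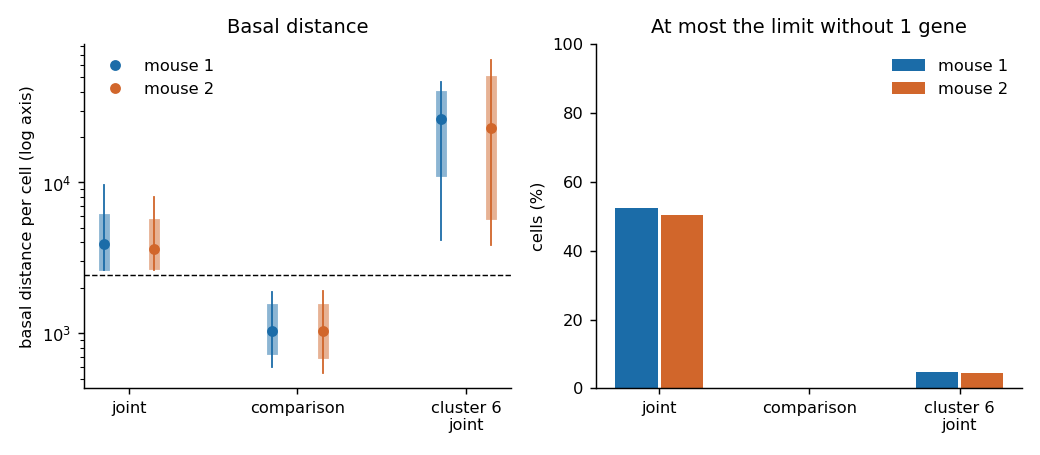
Left, basal distance per cell (log axis) in joint, comparison and cluster 6 joint cells by mouse, with the median (point), the 25th to 75th percentile (thick bar) and the 10th to 90th percentile (thin line); the dashed line is the distance at a score of 0.5. Right, percentage of cells over the limit whose distance falls to the limit or under it without their largest gene: 52.4% and 50.3% of joint cells and 4.79% and 4.46% of cluster 6 joint cells, while the comparison cells are under the limit by choice and have no bar.

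The gene in that place differed from cell to cell: 97 different genes held it in the 185 joint cells of mouse 1, and 178 in the 304 of mouse 2. Mgp, which encodes a matrix protein that inhibits calcification, was the most frequent, in 26 and 14 cells. Krt14 held the place in 11 cells of mouse 2, and Tagln, an actin-binding protein of contractile cells, in 7 and 10. Averaged over joint cells, Mgp made up 7.32% of the distance in mouse 1 and 2.53% in mouse 2. Ankrd1, a mechanically responsive cofactor, made up 6.34% and 0.927%, and Krt16, a keratin of stressed epidermis, 1.02% and 3.07%. By list, contractile genes added 4.74% and 2.14%, basal keratins and transcription factors 2.24% and 4.21%, and mitosis genes 2.7% and 2.89%. In the cluster 6 joint cells mitosis genes added only 0.0125% and 0.133%, while contractile genes added 7.73% and 4.65%. These shares describe the rule and support nothing further about the cells.

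The summed UMIs of the joint cells (2263528 and 1908292) were compared with those of the comparison cells (17018256 and 15784590). Of the 762 basal-score genes with enough UMIs, 627 had a log2 fold change above 0 (median 0.74), a direction the rule favors. Krt14 was at 65.4 CPM (counts per 1000000 summed UMIs) in mouse 1 and 340 in mouse 2, against 13.6 and 44.3 in the comparison cells and 476 and 1075 in the cluster 6 joint cells. Krt17 was at 65.8 and 243, against 3.29 and 4.94, with 448 and 311 in cluster 6. Acta2, the smooth muscle actin gene, reached 125 in mouse 1 but 8.38 in mouse 2, against 1.65 and 1.46, and stood at 988 and 818 in cluster 6. Krt5 was at 0 and 0.524, a single UMI in 489 cells, while the cluster 6 joint cells had 145 and 123. Mmp2, a matrix protease, was at 17.2 and 6.81 against 1.29 and 1.58.

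The 10 basal keratin and transcription factor genes summed to 285 and 855 CPM against 155 and 187. Of these genes, Sox10 and Krt6a are outside the basal score. Sox10, whose levels are given below, made up most of the comparison sums, and Krt6a made up 0 and 119 CPM of the joint sums. The 11 contractile genes summed to 1118 and 736 against 523 and 910, most of it Cald1, an actin-binding protein gene at 655 and 597 against 475 and 864, and 7 of the 8 contractile genes with enough UMIs had a log2 fold change above 0. Some basal-score genes were above cluster 6 in at least 1 mouse. Top2a was at 53 and 58.7 against 1.09 and 14.9 there, while Krt16 was at 151 against 38.7 in mouse 2 but at 28.7 against 126 in mouse 1. Several of these sums came from few cells. Krt14 UMIs were present in 8 and 43 joint cells, Krt17 in 16 and 24, Krt16 in 7 and 17, and Acta2 in 16 and 8, and the cell with the most UMIs held 41.5% and 58.1% of all Krt16. Sparc, a matrix protein of mesenchymal cells, was at 192 and 58.2 CPM against 3.06 and 1.27, and 82.4% of its UMIs in joint cells came from cluster 15. Cluster 15 likewise held 71.3% of Acta2, 86.5% of Mmp2 and 61.4% of Vim (345 and 79.7 CPM against 85.5 and 17.7). The progenitor-score gene Spp1, which encodes osteopontin, was at 2631 and 3306 CPM against 1109 and 2416. The milk gene Lalba, also a progenitor-score gene, was at 142 and 84.4 against 329 and 362.

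Detection of both keratin types was compared at equal depth, with each cell thinned to 2000 UMIs and 34 and 102 shallower joint cells left out. A UMI of Krt8 or Krt18 together with one of Krt5 or Krt14 was found in 6 of 151 joint cells of mouse 1 (3.97%, 1.47 to 8.45) and 29 of 202 of mouse 2 (14.4%). The comparison cells had 0.98% (0.49 to 1.75) and 4.62% (3.59 to 5.85), and cluster 13, a cluster outside both groups with high Krt19 and Foxa1 and no Krt5 UMI in mouse 1, 1.39% (0.0352 to 7.5) and 3.28% (1.21 to 7.0), at median depths of 15283.5 and 12168 UMIs against 12487 and 6562 in the joint cells kept. The interval of the joint cells of mouse 1 overlapped those of both, and in mouse 2 the lower bound of 9.83% lay above both. An overlap of intervals is not a test, and whether these shares differ was not tested in either mouse. In the cluster 6 joint cells it was 14.7% and 31.1%. Without thinning, Krt5 or Krt14 was seen in 4.32% and 14.5% of the joint cells and 2.0% and 9.24% of the comparison cells. Krt14 is one of the genes that chose the cells, so these shares are descriptive.

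**Figure D4:**
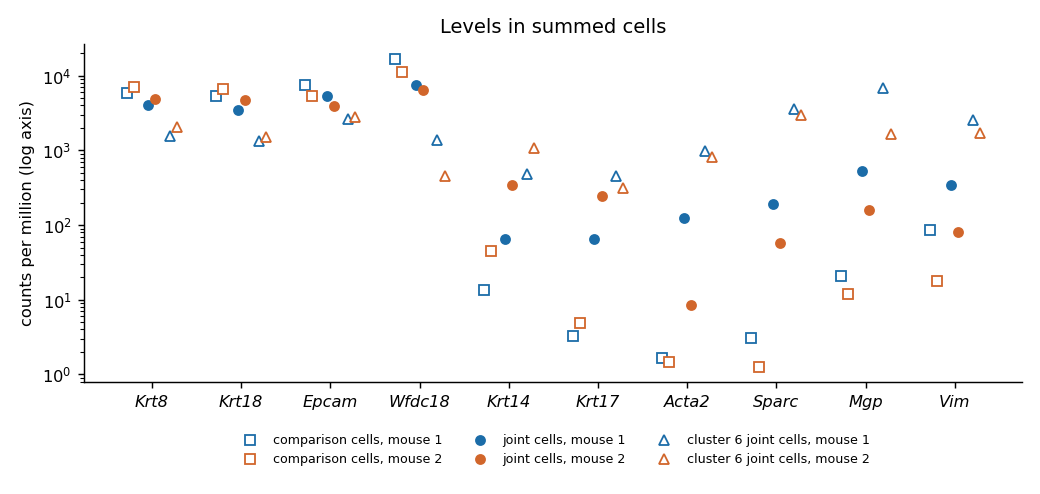
CPM (log axis) of luminal genes (Krt8, Krt18, Epcam, Wfdc18) and basal-score genes (Krt14 to Vim) in the summed UMIs of comparison, joint and cluster 6 joint cells, 1 point per mouse. For each of the 10 genes in each mouse the joint cells lie between the other populations, as for Krt8 at 4111 and 4893 between 1560 and 2043 and 5916 and 7044.

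Genes that neither score used were tested with edgeR's quasi-likelihood test on the 4 sums, blocked by mouse, and p-values were adjusted over all 12322 genes by the Benjamini-Hochberg method. Of 11190 such genes, 351 were higher in joint cells (3.14%) and 363 lower (3.24%) at an adjusted p under 0.05, and the median log2 fold change of all of them was -0.02. With cells of at least 5000 UMIs, 326 of 11082 were higher (2.94%) and 354 lower (3.19%), and 564 of the 714 calls were shared. When each joint cell was paired with the comparison cell of the same mouse and cluster nearest to it in depth (157 and 291 pairs, median 6705 against 8308 and 3404 against 3501 UMIs), 34 of 8751 genes were higher (0.389%) and 28 lower (0.32%). Of the 714 genes called over all cells, 586 could be fitted in the pairs, 94.0% of these kept their sign, and 53 were called there too, 52 with the same sign. A depth limit thus left the counts almost as they were, whereas most calls were lost in the pairs. The pairs also held fewer comparison cells. They left out 28 and 13 joint cells that had no partner, all of them in clusters 15 and 16. How far this loss of cells, rather than the match in depth, removed the calls was not tested. The test rested on 2 mice and 1 residual degree of freedom. Without the block 0 genes passed in either direction in edgeR (594 at an unadjusted p under 0.05), while DESeq2 in the blocked design called 82 higher (0.733%) and 50 lower (0.447%). Fits with 1 of the 4 sums left out also had no mouse block and kept 1 sum in a group, so only their effect sizes are given.

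Luminal keratin and junction genes were lower in the joint cells, and they were the clearest group. Of 10 genes in this list, 9 fell and 0 rose, with a median log2 fold change of -0.66, and 6 of the 10 were also lower in the depth-paired cells, with a median of -0.29. DESeq2 called 6 of them lower over all cells. Krt8 (GRCm38 chromosome 15, 101996698 to 102004482) was at 4111 and 4893 CPM against 5916 and 7044, and Krt18 (chromosome 15, 102028180 to 102032027) at 3513 and 4672 against 5352 and 6720. In both genes each joint sum was below both comparison sums. The log2 fold change was -0.69 ± 0.08 (SE; edgeR adjusted p = 3.3e-07) for Krt8 and -0.73 ± 0.08 (edgeR adjusted p = 1.7e-07) for Krt18, and -0.3 and -0.29 in the pairs (edgeR adjusted p = 0.023 and 0.032). Within clusters, Krt18 was lower in the joint cells in 19 of 21 combinations of a cluster and a mouse with at least 5 cells of each kind, and in all 6 clusters that had both mice. For Krt8 it was 17 of 21 and 5 of 6.

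The claudin Cldn4 changed most, from 1408 and 1598 CPM to 734 and 1062 (log2 fold change -0.93 ± 0.11, paired -0.62 ± 0.09; edgeR adjusted p = 0.00052 in the pairs). Cldn3 was at 911 and 857 against 1279 and 1292, and Cldn7 at 619 and 733 against 1156 and 960, and both were also lower in the pairs. The adhesion protein gene Epcam was at 5316 and 3971 against 7516 and 5367, and fell by 0.63 on the log2 scale (paired -0.29, edgeR adjusted p = 0.022). Cdh1, encoding E-cadherin, was lower over all cells (-0.5) but not in the pairs (-0.13, edgeR adjusted p = 0.83). Krt7, a gene of the mature luminal signature, was lower over all cells (-0.51) and at 0.07 in the pairs (edgeR adjusted p = 0.93), and Krt19 did not pass in either (-0.53 and -0.23). Even so, Krt8 or Krt18 was detected at 2000 UMIs in 94.0% and 94.6% of the joint cells, against 99.5% and 99.4% of the comparison cells and 55.9% and 71.7% of cluster 6 joint cells.

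**Figure D5:**
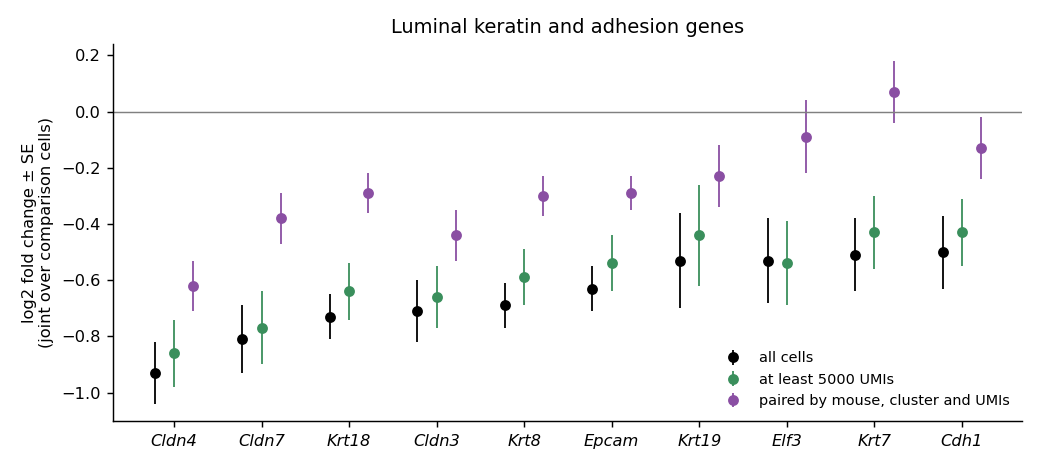
Log2 fold change with standard error of 10 luminal keratin and adhesion genes in joint over comparison cells, for all cells, for cells of at least 5000 UMIs and for cells paired by mouse, cluster and depth. All points of the first 2 fits lie below 0; in the pairs the change is smaller, from -0.62 for Cldn4 to 0.07 for Krt7.

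Among progenitor genes outside the score, Wfdc18, a secreted whey acidic protein family member, fell from 16572 and 11087 to 7460 and 6532 CPM (log2 fold change -1.12 ± 0.08, paired -0.63, edgeR adjusted p = 8.1e-05 in the pairs). Aldh1a3 and Ltf did not pass over all cells, while Ltf, the iron-binding lactoferrin, was lower in the pairs (-0.73, edgeR adjusted p = 0.0027). Of 9 mature luminal genes tested, 2 rose and 1 fell. Areg, an EGF receptor ligand, was at 1116 and 264 CPM against 240 and 147 (log2 fold change 1.38 ± 0.19, paired 1.01), with 61.0% of its joint UMIs of mouse 2 in a single cell, and neither DESeq2 (adjusted p = 0.53) nor edgeR without clusters 15 and 16 (log2 fold change 0.93, adjusted p = 0.24) called it. Ly6d rose by 1.04 (231 and 392 CPM against 141 and 121, paired 1.55), and Ly6a fell, from 456 and 54.7 to 136 and 37.2 CPM (-1.43, paired -1.17). Without the comparison sum of mouse 1, in a fit with no mouse block, Ly6a was at 0.56, a value that includes the difference between mice. Esr1, the estrogen receptor, was at 66.3 and 44.5 against 57.5 and 77.0, did not pass over all cells (-0.43) and was lower in the pairs (-0.77, edgeR adjusted p = 0.026). The mature luminal score, whose 446 genes are in neither of the other signatures, had a median of 0.332 and 0.396 in joint cells and 0.0858 and 0.089 in comparison cells, and 0.343 and 0.414 against 0.112 and 0.202 in the pairs, a difference left untested because 2 mice are too few for an exact permutation test to pass.

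Some of the largest rises were also called in the pairs. Hp, which encodes haptoglobin, was at 77.3 and 495 CPM against 29.9 and 120 (log2 fold change 1.58 ± 0.16, paired 1.3, edgeR adjusted p = 1.3e-06 in the pairs). Of 21 cluster and mouse combinations, it was higher in 13, lower in 4 and at 0 in both populations in 4. Without the joint sum of mouse 2, in a fit with no mouse block, the change of Hp was -0.07. That fit set the joint cells of mouse 1 against the comparison cells of both mice. Within each mouse the joint sum of Hp was the higher one. Fgg, the fibrinogen gamma chain, was at 44.6 and 63.9 against 21.2 and 9.44 (1.72 ± 0.25, paired 3.09) and was found in 19 and 11 joint cells. Krt6a, a stress keratin outside the basal score, was at 0 CPM in mouse 1 and 119 in mouse 2 against 0.764 and 3.93. It passed (4.06 ± 0.48), but all of its UMIs were in 10 cells of mouse 2, 39.2% of them in 1 cell, and DESeq2 did not call it. Dclk1, a microtubule-associated kinase, rose to 64.9 and 67.6 CPM from 11.1 and 16 (2.15 ± 0.18, paired 1.31), with 54.7% of its joint UMIs in cluster 15. Rgs2, a regulator of G protein signaling, was at 61.0 and 61.8 against 17.6 and 12 (1.9, paired 1.69). It was found in 22 and 19 joint cells, with 42.0% and 30.5% of the UMIs in 1 cell of each mouse and 36.7% in cluster 15.

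Scgb1b27, a secretoglobin, was at 0.884 and 43.5 CPM against 20.4 and 1077 (log2 fold change -4.78 ± 0.21, the largest fall among unused genes of at least 50 CPM, paired -4.64, edgeR adjusted p = 2.7e-09 in the pairs), and 14 joint cells of mouse 2 and 1 of mouse 1 held it. In mouse 1 only 5 comparison cells held it, with 95.7% of its UMIs in 1 of them, so the fall rested mainly on mouse 2. Of its joint UMIs, 74.1% were in cluster 16. Car6, a secreted carbonic anhydrase, was at 88.4 and 42.4 against 347 and 320 (-2.56, paired -1.03). Ccl6, 2310057J18Rik and Prol1 also fell over all cells, but each rested mainly on 1 mouse: Ccl6 was at 37.1 and 0 CPM against 103 and 0.443. Ppif, a mitochondrial cyclophilin, fell by 1.06 (paired -0.77), and Bik, Blnk, Dkkl1 and Arg1 fell by between 1.05 and 1.49 without passing in the pairs.

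Replication genes were higher over all cells and not in the pairs. Of 10 S phase genes outside the scores, 7 rose (median log2 fold change 1.07), among them the helicase subunits Mcm3 (23.0 and 12.1 CPM against 3.88 and 3.29) and Mcm7 (32.7 and 22 against 8.81 and 10.6). In the pairs 0 of 8 passed in edgeR (3 at an unadjusted p under 0.05), with a median of 0.38. Most joint cells of cluster 16 had no partner there, since 7 of 7 and 10 of 11 of its progenitor-score cells were joint. DESeq2 called 1 of 10, and without clusters 15 and 16, where 1.25% of all unused genes were higher and 0.836% lower, edgeR called 1 of 10. Histone transcripts Hist1h2ap, which has near-identical copies that share reads (94.5 and 224 CPM against 5.35 and 28.8; log2 fold change 3.29) and Hist1h1b (2.75) had 83.6% and 85.0% of their joint UMIs in cluster 16 and stood at -0.35 and -0.06 in the pairs. Hmgb2, a chromatin protein of dividing cells, was also called in the pairs, at 1.99 ± 0.16 over all cells and 0.94 in the pairs (edgeR adjusted p = 0.0067). It was higher in only 10 and lower in 11 of 21 cluster and mouse combinations, with 7 joint cells of cluster 4 in mouse 2 far above their comparison cells (2000 against 61.7 CPM). Of 3 mitosis genes outside the scores, 2 rose (Hmgb2 and Aurka) and Tubb4b did not pass (-0.15).

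Mesenchymal genes outside the scores were higher, with most joint UMIs of Twist1 and Zeb2, but not of Fn1, in cluster 15. Of 5 tested, 4 rose, with a median log2 fold change of 2.55, and 1 of 4 passed in the pairs, which left out most joint cells of cluster 15. Twist1 (49.5 and 7.34 CPM against 5.82 and 2.91; 2.33) and Zeb2 (35.3 and 6.81 against 5.64 and 0.887; 2.55), transcription factors of epithelial-mesenchymal transition, had 69.8% and 76.3% of their joint UMIs in cluster 15, and without clusters 15 and 16 only 1 of the 4 mesenchymal genes then tested passed. Fibronectin, Fn1, was at 30.0 and 5.76 against 2.59 and 0.57 (3.3, paired 1.91), and cluster 10 held the most of its joint UMIs, 46.8%. It was found in 12 and 7 joint cells, with 51.5% and 36.4% of the UMIs in 1 cell of each mouse. Ptn, the growth factor pleiotrophin, was the largest rise among unused genes of at least 50 CPM (44.6 and 128 CPM against 0.588 and 1.65; 6.09), with 92.8% of its UMIs in cluster 15 and 77.2% and 74.6% in 1 cell of each mouse. The salivary gene Smr3a (221 and 177 against 111 and 5.89; 2.51) fell in the pairs (-1.94, edgeR adjusted p = 2.4e-07), the only gene called in both with opposite signs, and 99.4% of its joint UMIs of mouse 2 were in 1 cell. Gm26917, a noncoding RNA locus among the leading genes of cluster 1 beside the hemoglobin gene Hbb-bs, was at 1566 and 2674 against 503 and 470 (1.91), with 85.0% of its joint UMIs in cluster 1, and at -0.26 in the pairs.

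Sox10, the transcription factor singled out by the study, did not pass: it was at 120 and 125 CPM against 132 and 128 (log2 fold change -0.25 ± 0.15, edgeR adjusted p = 0.35; paired -0.32). Among genes the study names as targets of Sox10, Nes was at 42.9 and 30.4 against 52.9 and 43.1 (-0.56, edgeR adjusted p = 0.037, not passing in the pairs, edgeR adjusted p = 0.73), and the basal-score genes Mia and Pmp22 had log2 fold changes of 0.35 and 0.13. The 3 targets summed to 299 and 214 CPM in joint and 240 and 177 in comparison cells. They summed to 645 and 534 in the cluster 6 joint cells and 51.7 and 39.7 in cluster 13. Foxa1 was at 2.65 and 15.7 against 2.59 and 4.94 and did not pass (0.94 ± 0.41, edgeR adjusted p = 0.18). The matricellular gene Postn, a basal-score gene, was at 41.5 and 18.3 against 3.35 and 1.58, with 840 and 1006 in the cluster 6 joint cells.

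Among response genes, the hypoxia and glycolysis list gave the most calls over all cells. Of 12 immediate early genes, 2 rose in edgeR and 0 in DESeq2 (2 at an unadjusted p under 0.05), Fos (506 and 1126 CPM against 334 and 611; log2 fold change 0.58) and Egr1 (0.6), and they stood at -0.11 and -0.02 in the pairs; 60.2% of the Fos UMIs of joint cells were in cluster 9. Of 9 hypoxia and glycolysis genes outside the scores, 3 fell over all cells, Aldoa (-0.74), Slc2a1 (-0.66) and Ldha (-0.41), where 3.24% of all unused genes were lower. DESeq2 called 2 of the 9 lower. The 3 genes did not pass in the pairs, where Adm, which encodes adrenomedullin, was the one gene of the list called and was higher (0.8, edgeR adjusted p = 0.043, against -0.15 over all cells). The small heat shock gene Hspb1 fell by 0.51 (paired -0.34, edgeR adjusted p = 0.037) and the other 5 heat shock genes tested did not pass. Of 10 interferon response genes and 8 antigen presentation genes, 0 passed over all cells in edgeR (0 and 1 at an unadjusted p under 0.05) or in DESeq2, while in the pairs 1 interferon gene was higher and 1 lower. Isg15 stood at 0.21 and H2-K1 at -0.09.

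Transcripts of other cell types were checked beside these results. Of the macrophage list, 6 of 10 genes could be tested and 4 rose, C1qa (1.77 and 6.81 CPM against 0.411 and 0.634), C1qb, C1qc and Tyrobp, while DESeq2 called 0 (3 at an unadjusted p under 0.05). Together the 10 macrophage genes summed to 29.2 and 56.1 CPM against 26.7 and 30.5, Adgre1 was at 0 in all sums, and 2 and 4 joint cells held at least 3 of the genes. Without cells that held at least 3 genes of a list of another cell type (24 and 14 joint cells, 79 and 54 comparison cells, of which 22 and 9 and 73 and 51 held Schwann cell genes), 1.43% of unused genes were higher and 1.12% lower. There 1 macrophage gene could be tested and did not pass (median log2 fold change -0.48), while 6 of 10 luminal keratin and adhesion genes fell. The fibroblast list summed to 19.0 and 24.1 CPM against 4.0 and 6.4, far below the 2894 and 5214 of the cluster 6 joint cells, with 0 and 1 joint cells holding 3 of its genes. Its gene Dcn rose (7.07 and 9.96 against 1.18 and 2.47). The Schwann cell list, which includes Sox10, summed to 242 and 195 CPM against 178 and 182, and at least 3 of its genes were found in 11.9% and 2.96% of joint cells against 6.08% and 3.18% of comparison cells, or in 1 joint cell of each mouse at 2000 UMIs. Of its 4 genes tested, S100b rose. Endothelial genes summed to 10.2 and 33.5 against 7.7 and 21.0, and B cell and adipocyte genes to at most 1.05. The part of these transcripts in the other changes was not tested further.

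Signaling and stress lists gave at most 2 calls each. Of 5 Notch genes outside the scores, 0 passed in edgeR (0 at an unadjusted p under 0.05) or in DESeq2. Of 7 EGF family genes outside the scores, Areg rose and Erbb3, a neuregulin receptor, fell (30.9 and 69.7 CPM against 50.2 and 103; log2 fold change -0.79, not passing in the pairs). Of 7 Wnt and TGF-beta genes, Inhba, which encodes an activin subunit, rose (32.3 and 38.3 against 2.64 and 2.22; 3.68), with 54.8% of its joint UMIs in cluster 15. The metallothionein gene Mt2 rose by 0.5 and the thioredoxin reductase gene Txnrd1 fell by 0.45 over all cells, neither passed in the pairs, and Mt2 was at -0.62 without clusters 15 and 16. Asns, an amino acid stress gene, fell by 0.72 (paired -0.36) and was the only one of 9 stress response genes called. The chemokine Ccl2 (6.63 and 10.5 against 0.823 and 4.18; 1.83) was found in 3 and 5 joint cells and stood at -1.44 in cells of at least 5000 UMIs, the Schwann cell marker S100b (72.5 and 17.3 against 10.5 and 10.3; 1.78) had 72.6% of its joint UMIs in cluster 15, and the basement membrane gene Nid1 (5.43) was found in 4 joint cells of each mouse.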

How the data were processed

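Single-cell 3′ libraries of GFP+ tumor cells from 2 mice were analysed. The authors' deposited matrices hold UMI counts (Cell Ranger 6.0.1, mm10, per the labels). The deposited annotation (Seurat 4.0.3 in the processing notes; doublets removed by the authors with scDblFinder, lymphoid and myeloid clusters removed) gives clusters, the mitochondrial fraction, VAM distances (a score with no fixed range) and their cumulative score, a fraction from 0 to 1. Dropping genes with a UMI in fewer than 10 barcodes of a library, and 6 further gene and library pairs, gave the deposited UMI totals exactly in 100% of cells. Score genes were recovered by sparse regression of the deposited distances on squared log-normalized values, with weights from the variance trend, then set to used or not used (held-out variance explained 1.0 for the progenitor and 0.9998 for the basal score).

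Counts were summed per mouse and group. edgeR 4.0.16 (R 4.3.3) was used with filterByExpr, TMM and a mouse block, since both sums come from the same animal; across genes the difference between mice correlated at r = 0.546 between joint and comparison sums, and genes are not independent replicates. The biological coefficient of variation was 0.122. Standard errors were taken from the log2 fold change and the F statistic. CPM are per 1000000 summed UMIs without the TMM factors that the log2 fold changes include. These factors were 1.0351 and 1.0847 for the joint sums and 0.9197 and 0.9685 for the comparison sums. The log2 fold changes therefore generally lie below the ratios of the printed CPM. In simulated sums of 12322 genes for joint against comparison cells, edgeR called 67 of 100 2-fold and 92 of 100 4-fold changes with 10 unchanged genes called, and DESeq2 1.42.0 33 and 68 with 0. The simulation had no difference between mice and the same dispersion for every gene, and it changed only genes above a minimum of comparison UMIs. Its rates therefore need not hold for the real sums. Alternatives were other normalization, filter, depth, pairing, thinning, score limits, cell subsets, no block, and each sum left out in a fit with no block. Intervals are exact Clopper-Pearson.

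The rule for named genes took (a) genes the study names for its single-cell data, (b) the 12 largest rises and 12 largest falls past the threshold among unused genes, with the mice concordant in sign and a mean of at least 50 CPM in the higher group, (c) from every gene list at most 4 called genes, by size of change, or the 2 with most summed UMIs if the list had no call, and (d) the 12 genes adding most to the difference in basal distance; not all of them are described. Aldh1a3, Ltf, Esr1, Tubb4b, Adgre1, Adm, Top2a and the leading genes of clusters were picked with their values in view. The members and lists were chosen with earlier results of these data known. Positions are from GENCODE vM21 (GRCm38).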

Additional observations from a re-analysis of the deposited data

How the results depend on the processing

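The mouse block decided the calls of single genes: with no replicate block, 0 genes passed in either direction, and leaving out 1 of the 4 sums left 0 to 17 genes higher and 0 to 6 lower, the lowest without the joint sum of mouse 2. Against 351 higher and 363 lower genes, DESeq2 gave 82 and 50, pairing by mouse, cluster and UMIs 34 and 28, pairing among cells of at least 5000 UMIs (chosen after seeing the data) 30 and 16, thinning to 2000 UMIs 100 and 100, score limits of 0.6 and 0.4 162 and 112, leaving out cluster 1 164 and 111, leaving out clusters 15 and 16 140 and 94, and leaving out cells with genes of another cell type 157 and 123. RLE size factors, no filter and at least 5000 UMIs kept both counts within 1.5 times. The causes were not tested. Pairing and thinning also left fewer UMIs, and pairing by mouse, cluster and UMIs left out 28 and 13 joint cells, all of clusters 15 and 16. Restricting to at least 5000 UMIs moved the share of joint cells to 10.5% and 9.95%, and leaving out cluster 1 moved that of mouse 2 to 13%.

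Of 78 tested named genes over 1166 alternative values, 28 values had the opposite sign. In the pairs these were Krt7 (0.07; 0.09 at 5000 UMIs), Prol1 (0.85; 0.84), Hist1h2ap (-0.35; -0.51), Hist1h1b (-0.06; -0.27), Smr3a (-1.94; -1.98), Ldha (0.02; 0.1), Egr1 (-0.02; -0.11), Fos (-0.11; -0.14) and Gm26917 (-0.26). Without clusters 15 and 16, Smr3a was at -0.85 and Mt2 at -0.62, and at 5000 UMIs Ccl2 was at -1.44. Leaving out 1 sum, with no mouse block, turned the sign, over ranges of -12.42 to 2.06 for 2310057J18Rik, -12.27 to 5.26 for Ccl6, -3.02 to 0.56 for Ly6a, -5.37 to 1.31 for Prol1, -0.07 to 3.07 for Hp, -7.77 to 6.04 for Krt6a, -0.03 to 1.11 for Fos and -0.41 to 1.27 for Mt2. Without the joint sum of mouse 2 these were Hp, Krt6a, Fos and Mt2, without the comparison sum of mouse 1 Ccl6, Ly6a and Prol1, and without that of mouse 2 2310057J18Rik. Such values include the difference between mice.

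Krt8, Krt18, Epcam, Cldn3, Cldn4 and Cldn7 were lower under every alternative run, among them the fits with a sum left out, which had no mouse block. None of these genes passed without the block, and Krt8, Krt18, Epcam and Cldn7 did not in pairs of at least 5000 UMIs. Depth limits detection: the joint sums held 2263528 and 1908292 UMIs against 17018256 and 15784590.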
